A study of Rattus norvegicus with 18 samples.

Results

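The excitability of a muscle fibre rests on a small set of channels, and 6 of their genes were followed here in rats with experimental autoimmune myasthenia gravis (EAMG): Scn4a, Clcn1, Cacna1s, Cacnb1, Kcnj11 and Kcnn3. The genes were chosen by name, as the channels of the fibre surface and T-tubule that carry or shape the muscle action potential and couple it to contraction, and every probe set annotated to 1 of them was taken. They are 6 of 14217 named genes on the array and have 9 of its 20826 probe sets with 1 gene symbol. Sodium, chloride, calcium and potassium channels are among them but no pump, so the subunits of the sodium pump are described separately as a list.

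RNA came from 3 muscles of female Lewis rats: the diaphragm (DIA), which drives breathing, the fast hindlimb muscle extensor digitorum longus (EDL), and the small extraocular muscles around the eyeball (EOM). The rats were 6 to 8 weeks old at the start. EAMG rats were immunised with 40 µg of Torpedo electric organ acetylcholine receptor in complete Freund's adjuvant with an added 0.5 mg of mycobacterium, and control rats received the adjuvant without the receptor, so both groups carried the adjuvant's own inflammation. Muscle was taken at week 6, and each of the 6 groups of muscle and treatment had 3 arrays. Every array held RNA pooled from several rats (3 by the series design text, 4 or 4 to 5 by the methods), which hides the differences between single animals. The methods describe the 3 muscles as harvested from 4 rats and pooled, but do not link the pools of different muscles to each other. The p-values measure the spread between pools, and the main fit treats the 18 arrays as independent. If the muscles shared rats, p-values for the average over the muscles could be too small.

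In a resting fibre the chloride conductance keeps the membrane near its resting potential, and the voltage-gated sodium channel carries the action potential along the surface and into the T-tubules. There the dihydropyridine receptor senses the voltage and opens the calcium release channel of the sarcoplasmic reticulum. Potassium channels, some of them opened by calcium or by a fall of ATP, set how easily the fibre fires again, and the sodium pump restores the gradients. In myasthenia gravis antibodies against the acetylcholine receptor reduce the endplate current that has to start this sequence.

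The authors had scaled each array to one target intensity. The equal trimmed mean signal, 500.2 on each of the 18, follows from that and is no test of the scaling. The median signal ranged between 129 and 163. A few arrays stood apart in their control signals or markers. The GAPDH 3′/5′ ratio, in which 2 probe sets of that transcript are compared as a measure of RNA and cDNA integrity, was 2.66 on EAMG DIA replicate 3, against 1.06 to 1.33 on the other 17 arrays. The mean signal of the poly-A controls, which are added to the RNA before labelling, was 908 on EAMG DIA replicate 2 and 641 on EAMG EOM replicate 2, against 11804 to 27727 on the other 16. The summed signal of 10 slow fibre markers was 312011 on EAMG EDL replicate 2, against 96158 to 116845 on the other 5 EDL arrays. The extraocular myosin markers matched the labels, since the summed signal of the 4 with a probe set ranged between 52886 and 78426 on the 6 EOM arrays and did not exceed 2411 on any DIA or EDL array.

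Of the 9 probe sets, 8 (5 genes) reached a signal of 400 on at least 1 array and were tested, beside 12238 probe sets in all. The probe set that missed was that of Scn4a, the pore-forming subunit of the skeletal muscle sodium channel, and its signal never exceeded 99.1. It read 42.3, 30.9 and 17.4 in EAMG DIA, against 71.2, 56.4 and 5.9 in control DIA. In EAMG EDL it read 47.9, 4.8 and 20.4, against 99.1, 11.8 and 88.4 in control EDL. In EAMG EOM it read 16.1, 7.8 and 75.6, against 20.9, 16.4 and 62.6 in control EOM. The groups overlapped in each muscle, the arrays of a group differed by several-fold, and the signal therefore supports no order of muscles or treatments. A low signal from a single probe set does not show how much Scn4a RNA the muscles held.

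**Figure D1:**
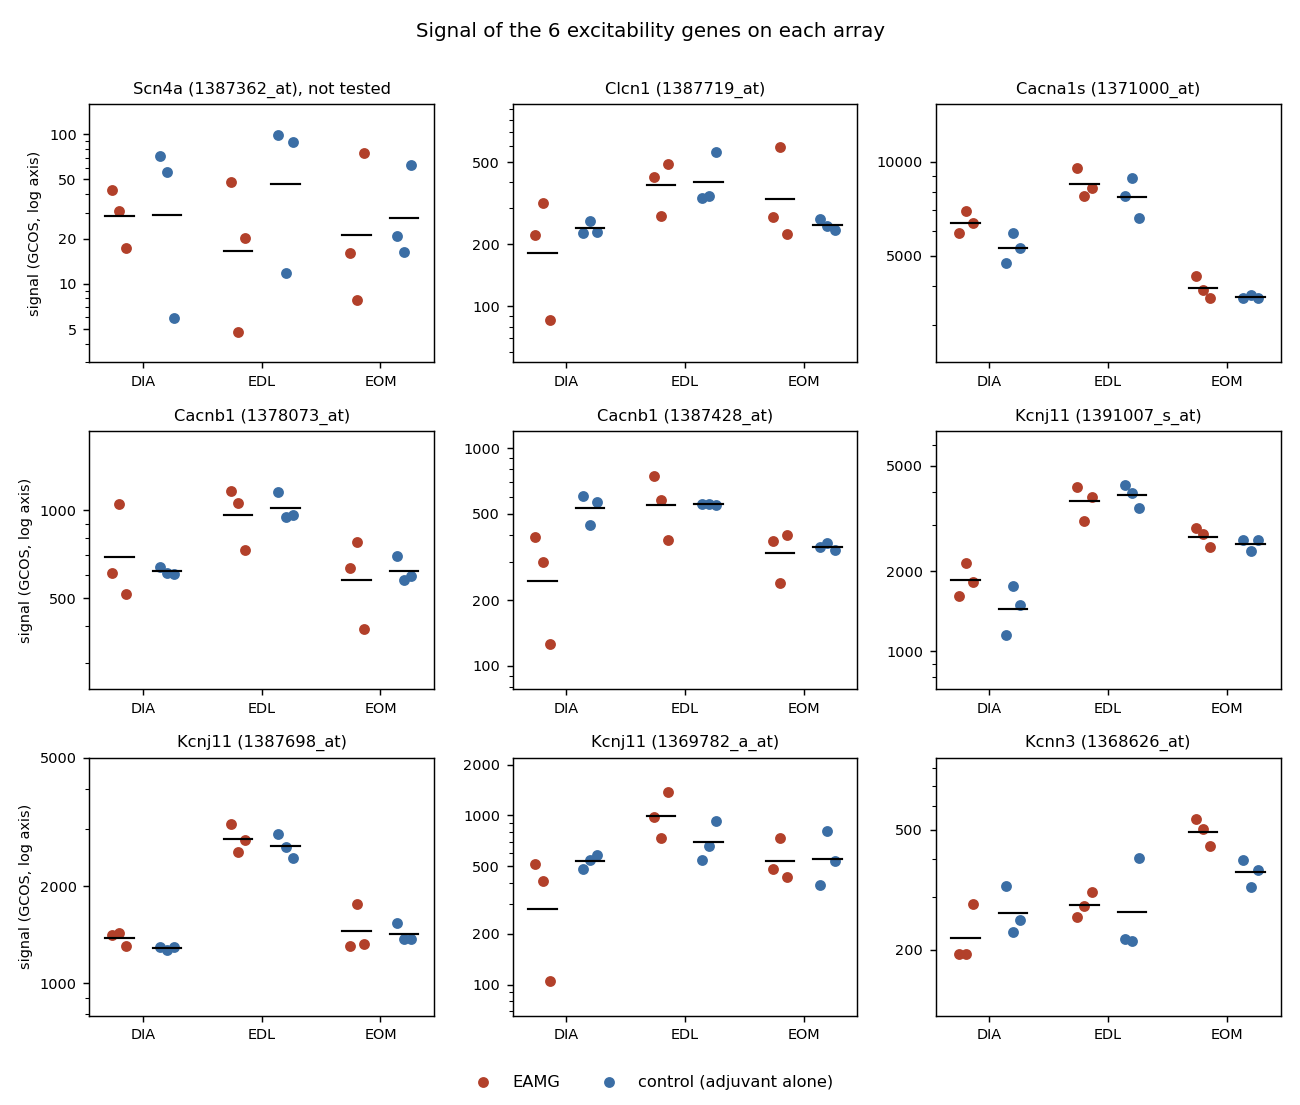
Each point is the signal of 1 array on a log axis, with EAMG arrays (red) left of control arrays (blue) in each muscle and a bar at the geometric mean of 3. The Cacna1s points of EOM sit below those of DIA and EDL, the Kcnj11 1387698_at points of EDL sit above those of DIA and EOM, and the Scn4a points stay under 100.

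The promoters of 3 of these genes are shown. Cacna1s is shown because its level differed between all 3 control muscles, and Clcn1 and Kcnn3, whose differences between control muscles did not pass, stand beside it. Each runs 5′ to 3′ from 250 bases before the annotated transcription start to 50 bases after it and comes from RefSeq (build GRCr8), which gave a promoter for 4 of the 6 genes. That of Scn4a is not printed because its signal was too low to compare muscles. Capitals mark E-boxes, the letters CANNTG, which the myogenic factors of the MyoD family can bind.
Cacna1s, chr13:50045418-50045717, plus strand: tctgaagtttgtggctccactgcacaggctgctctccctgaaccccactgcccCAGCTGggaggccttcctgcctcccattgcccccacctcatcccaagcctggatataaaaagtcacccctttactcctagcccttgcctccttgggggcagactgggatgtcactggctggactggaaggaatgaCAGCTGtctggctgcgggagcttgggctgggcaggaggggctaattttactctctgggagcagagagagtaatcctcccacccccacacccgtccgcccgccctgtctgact
Clcn1, chr4:72138928-72139227, plus strand: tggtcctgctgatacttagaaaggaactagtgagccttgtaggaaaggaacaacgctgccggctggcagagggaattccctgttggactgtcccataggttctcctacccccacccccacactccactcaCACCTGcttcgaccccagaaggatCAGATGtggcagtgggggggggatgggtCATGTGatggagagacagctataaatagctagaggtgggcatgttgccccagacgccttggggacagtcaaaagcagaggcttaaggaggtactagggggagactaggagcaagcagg
Kcnn3, chr2:177234090-177234389, plus strand: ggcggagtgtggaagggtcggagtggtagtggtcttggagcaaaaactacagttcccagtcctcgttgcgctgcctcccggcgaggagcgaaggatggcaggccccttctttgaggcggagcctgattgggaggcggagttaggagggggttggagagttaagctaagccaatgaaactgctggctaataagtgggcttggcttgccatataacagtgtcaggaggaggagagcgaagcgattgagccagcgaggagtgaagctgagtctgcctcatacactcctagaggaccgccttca

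Cacna1s held 2 E-boxes, both spelled CAGCTG, Clcn1 held 3 of other spellings, and Kcnn3 held none. The promoter of Scn4a held 3, of which 1 was CAGCTG. On either strand CANNTG occurs in 72.1% and CAGCTG in 15.1% of the 33469 RefSeq promoters of this length, and each motif reads the same on both strands. Clcn1 also held 1 MEF2 site, a motif found in 3.29% of promoters, and it overlaps the letters TATAAA, which occur on either strand in 14.2%. Cacna1s held TATAAA too, from base -144 to base -139, and Kcnn3 and Scn4a did not. A match is a run of letters and not evidence that a factor binds there.

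Before the effect of EAMG, the control arrays answer which muscle has more of each channel. Cacna1s and Kcnj11 were highest in EDL, Kcnj11 by all but its dimmest probe set. Cacna1s was lowest in EOM. Kcnj11 was lowest in DIA by its brightest probe set, and its other probe sets did not pass between EOM and DIA. Cacnb1 was lower in EOM than in EDL by a narrow margin, while no difference of Clcn1 or Kcnn3 between control muscles passed the test. A probe set passed at a Benjamini-Hochberg adjusted p under 0.05 in limma over all probe sets tested, and the 3 comparisons of muscles share their control arrays. In whole muscle, fewer cells of a type and less RNA per cell cannot be told apart.

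Of the 8 tested probe sets, 4 passed between control EOM and control EDL, all lower in EOM, where 41.4% of all probe sets passed. Between control EOM and control DIA 2 passed, 1 in each direction, where 21.3% of all passed. Between control DIA and control EDL 3 passed, all lower in DIA, where 24.8% of all passed. The median log2 difference of the 8 was -0.67 for EOM minus EDL, 0.05 for EOM minus DIA and -0.63 for DIA minus EDL, beside medians over all probe sets of 0.05, 0.01 and 0.04.

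**Figure D2:**
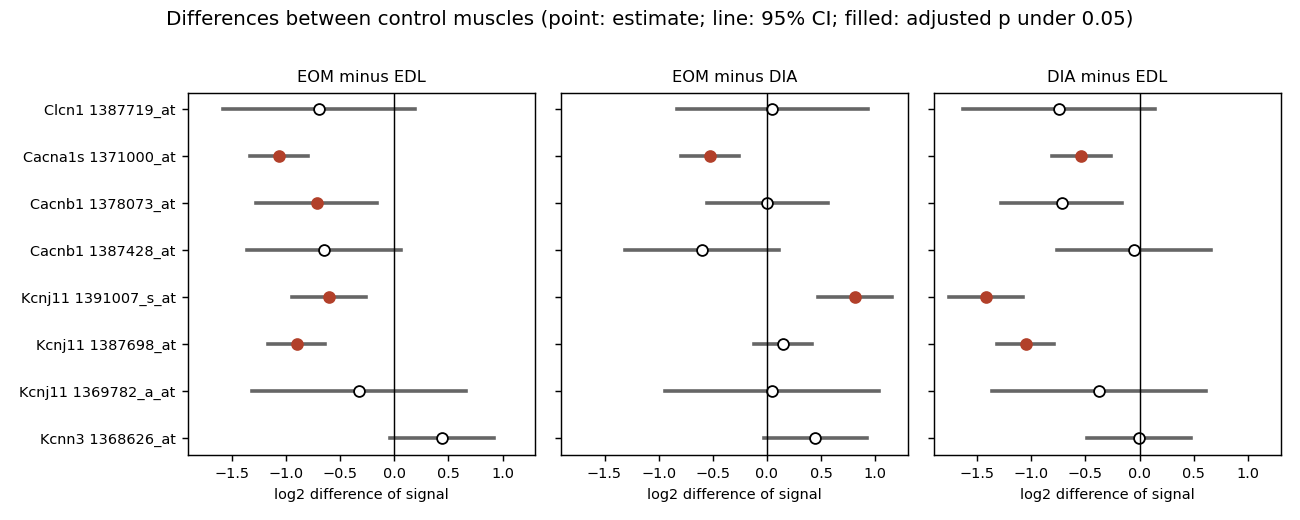
Points are log2 differences of signal between control muscles (first named minus second) with 95% confidence intervals from limma, filled where the adjusted p was under 0.05. Cacna1s lies left of 0 in each panel, and Kcnj11 1391007_s_at lies left of 0 for EOM minus EDL and DIA minus EDL and right of 0 for EOM minus DIA.

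Cacna1s encodes the voltage sensor and pore of the dihydropyridine receptor. It had signals of 3650.4, 3734 and 3666 in control EOM, 4757, 5929 and 5298 in control DIA, and 7774, 8900.1 and 6608 in control EDL. The control arrays of the muscles did not overlap, and the order was EOM, DIA, EDL. The log2 difference was -1.06 ± 0.13 (SE) for EOM minus EDL (adjusted p = 1.21e-05), -0.53 ± 0.13 for EOM minus DIA (adjusted p = 0.00752) and -0.54 ± 0.13 for DIA minus EDL (adjusted p = 0.00679). The last lost its call, at an adjusted p of 0.0501, when only the control arrays of DIA and EDL were fitted.

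Cacnb1, the beta subunit that brings the dihydropyridine receptor to the triad, had 2 probe sets whose log2 signals correlated at r = 0.44 over the 18 arrays. The brighter, 1378073_at, had signals of 696, 578 and 593 in control EOM, 637, 611 and 606 in control DIA, and 1154, 949.7 and 964 in control EDL. The EDL arrays lay above all 6 others, and EOM and DIA overlapped. The difference was -0.72 ± 0.26 (SE) on the log2 scale for EOM minus EDL (adjusted p = 0.0402) and -0.72 ± 0.26 for DIA minus EDL (adjusted p = 0.0575). The first lost its call without any 1 of the 6 control arrays compared, with adjusted p between 0.0537 and 0.123, and with no signal minimum (adjusted p = 0.115). The difference for DIA minus EDL, which had not passed, did so in 13 refits (adjusted p 0.00928 to 0.0480), among them those with the replicate number as a block (0.0276) and with the pool as a random block (0.0329).

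The dimmer probe set of Cacnb1, 1387428_at, had signals of 350, 367 and 342 in control EOM, 601, 445.5 and 569 in control DIA, and 555, 557 and 547 in control EDL. Here EOM lay below both other muscles, but no difference passed (EOM minus EDL -0.65 ± 0.33, adjusted p = 0.135). The 2 probe sets of Cacnb1 therefore placed DIA differently, near EOM by the brighter and near EDL by the dimmer.

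Kcnj11 encodes the pore of the ATP-sensitive potassium channel, which opens as ATP falls in a working fibre. Its brightest probe set, 1391007_s_at, is of a type that can also detect related transcripts, and had signals of 2633, 2393 and 2626 in control EOM, 1155, 1763 and 1494 in control DIA, and 4221, 3949 and 3466 in control EDL. The muscles did not overlap, with DIA lowest and EDL highest. The differences were -0.60 ± 0.16 (SE) for EOM minus EDL (adjusted p = 0.00741), 0.81 ± 0.16 for EOM minus DIA (adjusted p = 0.00181) and -1.42 ± 0.16 for DIA minus EDL (adjusted p = 2.62e-05), all on the log2 scale.

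A second probe set of Kcnj11, 1387698_at, had signals of 1534, 1375 and 1369 in control EOM, 1292, 1267 and 1294 in control DIA, and 2911, 2639 and 2452 in control EDL. It gave the same high level in EDL, with differences of -0.90 ± 0.12 for EOM minus EDL (adjusted p = 4.47e-05) and -1.05 ± 0.12 for DIA minus EDL (adjusted p = 3.59e-05). Between EOM and DIA its difference was 0.15 ± 0.12 with an interval of -0.12 to 0.41 (adjusted p = 0.452), so the gap between those muscles rests on the brightest probe set. The third, 1369782_a_at, ranged between 386 and 932 over the 9 control arrays, its muscles overlapped, and none of its differences passed. Its log2 signal correlated with those of the other probe sets at r = 0.57 and 0.48, against 0.83 between these.

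Clcn1 encodes the chloride channel whose loss causes myotonia. It had signals of 265, 244 and 234 in control EOM, 226, 260.2 and 230.5 in control DIA, and 335, 343 and 556 in control EDL. The EDL arrays lay above the others, but the log2 differences of -0.69 ± 0.42 (EOM minus EDL, adjusted p = 0.197) and -0.74 ± 0.42 (DIA minus EDL, adjusted p = 0.208) did not pass. When only the control arrays of EOM and EDL were fitted the first passed (adjusted p = 0.0361). EOM and DIA differed by 0.05, with an interval of -0.83 to 0.94.

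Kcnn3 encodes a small-conductance potassium channel opened by calcium, which in rodent muscle is known as a channel of denervated and immature fibres. It had signals of 397, 322 and 368 in control EOM, 325, 229 and 249.9 in control DIA, and 217.5, 214 and 404 in control EDL. The groups overlapped through 1 high array in EDL and 1 in DIA. The log2 difference was 0.44 ± 0.22 for EOM minus EDL (adjusted p = 0.130) and 0.45 ± 0.22 for EOM minus DIA (adjusted p = 0.183). Without control EDL replicate 3, the EDL array that read 404, the first was 0.74 with an adjusted p of 0.00614.

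Markers of cell types moved between the control muscles too. Of 10 skeletal fibre markers tested, 5 were lower in EOM than in EDL, where 41.4% of all probe sets passed. Summed fibre marker signal ranged between 283198 and 307592 in EOM, 291685 and 305053 in DIA, and 373165 and 471178 in EDL. Against EDL, 6 of 6 Schwann cell, 7 of 7 macrophage and 5 of 6 fibroblast markers tested were higher in EOM. Summed Schwann cell signal ranged between 16771 and 20163 in EOM and 3676 and 8184 in EDL, summed macrophage signal between 6505 and 13539 in EOM and 1765 and 3838 in EDL, and summed fibroblast signal between 57747 and 62393 in EOM and 21242 and 34809 in EDL, while Itgam, a defining macrophage marker, never exceeded 76.3. Between EOM and DIA the median log2 difference of the fibre markers was -0.02 and that of Cacna1s -0.53. In that comparison 5 of 6 Schwann cell markers were higher in EOM, where 21.3% of all probe sets passed.

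Fibre types differed as well. Of 10 slow fibre markers 10 were higher in DIA than in EDL (median log2 difference 1.35), where 24.8% of all probe sets passed. Of the same markers 8 were lower in EOM than in DIA (median -1.17), where 21.3% of all passed. Summed slow fibre signal ranged between 112379 and 118607 in EOM, 255543 and 271183 in DIA, and 96158 and 116845 in EDL. Of 9 fast fibre markers tested, 5 were lower in DIA than in EDL (median -0.45) and 4 were lower in EOM than in EDL (median -0.41). The shares of all probe sets that passed were 24.8% and 41.4%. The part of cell makeup in the differences of the channel genes was not tested.

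The effect of EAMG was the next question, and no change of any of the tested channel genes passed. The lowest adjusted p belonged to a lower signal of the dimmer Cacnb1 probe set in DIA and, within EOM, to a higher signal of Kcnn3. Each had EAMG arrays apart from control arrays, as had 24.4% of all probe sets in DIA and 24.5% in EOM. Kcnn3 entered the test largely through those EAMG EOM arrays, since every control EOM array lay below the signal minimum of 400. None of the 8 probe sets passed limma in DIA, where 2.68% of all did, in EDL, where 6.59% did, or in EOM, where 1.50% did, and none passed for the average change over the 3 muscles, where 20.4% did. At an unadjusted p under 0.05 there were 2 in DIA, 0 in EDL, 0 in EOM and 2 for the average. The 8 had a median log2 change of -0.08 (DIA), 0.03 (EDL) and 0.05 (EOM), where the medians over all probe sets lay within 0.01 of 0. No probe set met the study's type of ratio rule either, which asks for a difference of 2-fold or more, in 1 direction, in 7 or more of 9 pairings of EAMG and control arrays.

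**Figure D3:**
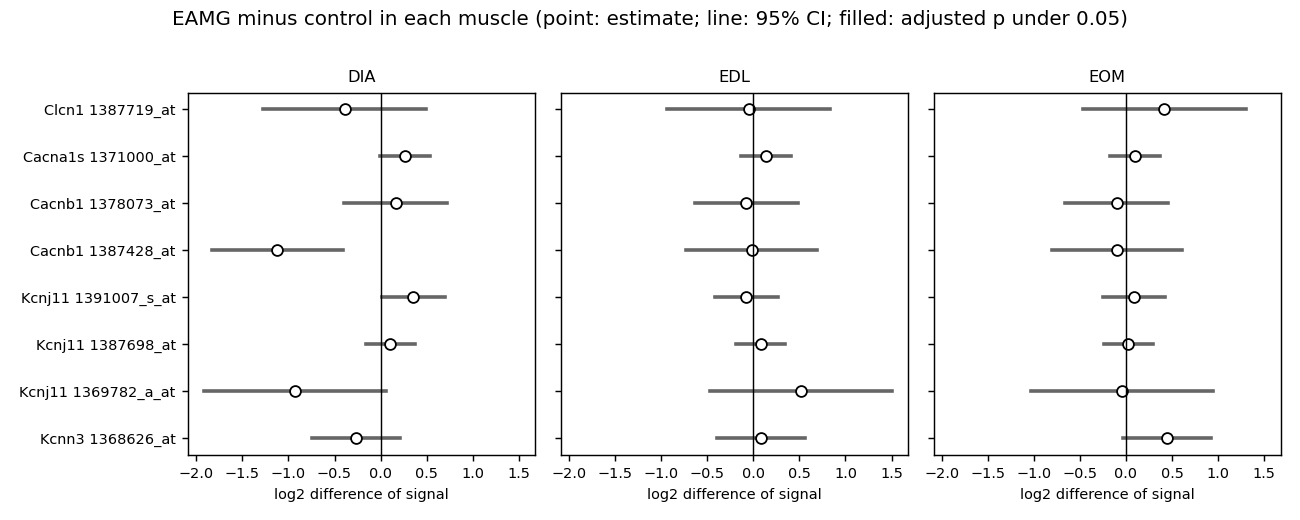
Points are log2 differences of signal, EAMG minus control, in each muscle with 95% confidence intervals from limma, and none is filled because no adjusted p was under 0.05. The interval of Cacnb1 1387428_at in DIA (-1.83 to -0.41) lies below 0 before adjustment, and the intervals of Cacna1s and of Kcnj11 1387698_at are the narrowest.

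EAMG and control arrays did not overlap for 2 of the 8 probe sets in DIA (24.4% of all probe sets), 0 in EDL (25.0% of all) and 1 in EOM (24.5% of all). For the channel probe sets these are shares of 25.0%, 0.0% and 12.5%, near or below the shares of all.

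Cacna1s had signals of 5911, 6938 and 6349.9 in EAMG DIA, against 4757, 5929 and 5298 in control DIA. It had 9548, 7764 and 8239.8 in EAMG EDL, against 7774, 8900.1 and 6608 in control EDL, and 4303.5, 3899 and 3673 in EAMG EOM, against 3650.4, 3734 and 3666 in control EOM. The groups overlapped in each muscle, in DIA only because EAMG replicate 1 read just below control replicate 2. The log2 change was 0.27 ± 0.13 (SE) for DIA (adjusted p = 0.257), 0.14 ± 0.13 in EDL (adjusted p = 0.545) and 0.10 ± 0.13 in EOM (adjusted p = 0.790). The average over the muscles was 0.17 ± 0.07, with an interval of 0.01 to 0.33 and an adjusted p of 0.115.

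The brighter probe set of Cacnb1 had signals of 608.5, 1051 and 516 in EAMG DIA, 1166, 1054 and 733 in EAMG EDL, and 633, 781 and 390.5 in EAMG EOM. These overlapped the control signals given above, and the log2 change was 0.16 ± 0.26 for DIA, -0.08 ± 0.26 for EDL and -0.10 ± 0.26 for EOM. The dimmer probe set, 1387428_at, had 390.3, 302 and 125.5 in EAMG DIA, against 601, 445.5 and 569 in control DIA. All 3 EAMG arrays lay below the controls, and the change was -1.12 ± 0.33 (adjusted p = 0.0814).

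That lowest reading came from EAMG DIA replicate 3, the array with the GAPDH ratio of 2.66. Without this array the change of Cacnb1 1387428_at was -0.64 with an adjusted p of 0.224, and without EAMG DIA replicate 1 it was -1.46 with an adjusted p of 0.0215. The same array gave the lowest EAMG DIA signal of Clcn1 (86) and of Kcnj11 1369782_a_at (105). Without it the DIA change of Clcn1 was 0.15 in place of -0.39, and that of Kcnj11 1369782_a_at was -0.22 in place of -0.93. The part of RNA integrity in these values was not tested. Summed fibre marker signal was lower on each EAMG DIA array than on each control DIA array. It ranged between 256214 and 282411 in EAMG DIA and between 291685 and 305053 in control DIA. Of 10 markers 1 was called lower, where 2.68% of all probe sets passed. The part of the fibre marker signal in the DIA values was not tested either.

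In the other muscles Cacnb1 1387428_at read 748, 577 and 379 in EAMG EDL, against 555, 557 and 547 in control EDL, and 373, 241 and 399 in EAMG EOM, against 350, 367 and 342 in control EOM. The groups overlapped, with changes of -0.02 ± 0.33 (EDL) and -0.10 ± 0.33 (EOM). Its DIA change differed from that in EDL by -1.11 ± 0.47 on the log2 scale, which did not pass (adjusted p = 0.904).

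Kcnj11 1391007_s_at had signals of 1611, 2159 and 1829.7 in EAMG DIA, 4168, 3108 and 3817 in EAMG EDL, and 2913, 2761 and 2464 in EAMG EOM. Each overlapped its controls, and the log2 change was 0.36 ± 0.16 in DIA (adjusted p = 0.232), -0.08 ± 0.16 in EDL and 0.09 ± 0.16 in EOM. Kcnj11 1387698_at had 1410.4, 1434 and 1303 in EAMG DIA, against 1292, 1267 and 1294 in control DIA, so that the groups did not overlap. The change there was 0.11 ± 0.12 (adjusted p = 0.675). Its changes in EDL and EOM were 0.08 ± 0.12 and 0.02 ± 0.12, with intervals of -0.19 to 0.34 and -0.24 to 0.29.

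The dimmest probe set of Kcnj11, 1369782_a_at, had signals of 519, 409.8 and 105 in EAMG DIA, against 482, 543 and 588 in control DIA. In EAMG EDL it had 981.5, 731 and 1368, against 542, 663 and 931.5 in control EDL, and in EAMG EOM 484, 733 and 433.5, against 386, 808 and 540.3 in control EOM. The groups overlapped in each muscle, and the log2 changes of -0.93 ± 0.46 in DIA (adjusted p = 0.282), 0.52 ± 0.46 in EDL (adjusted p = 0.536) and -0.04 ± 0.46 in EOM did not pass.

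Clcn1 had signals of 221, 318 and 86 in EAMG DIA, 425, 274.5 and 492 in EAMG EDL, and 269.6, 594 and 224 in EAMG EOM. These overlapped the controls in each muscle, and the high EOM value came from replicate 2, an array of low poly-A signal. The log2 change was -0.39 ± 0.42 for DIA, -0.05 ± 0.42 for EDL and 0.42 ± 0.42 for EOM, where it was -0.01 without replicate 2. The intervals ran from -1.27 to 0.50, from -0.94 to 0.83 and from -0.47 to 1.30. In DIA and EOM these intervals include a 2-fold change.

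Kcnn3 had signals of 541, 501 and 441 in EAMG EOM, against 397, 322 and 368 in control EOM. All EAMG arrays lay above the controls, and the log2 change was 0.45 ± 0.22 with an interval of -0.03 to 0.93 (adjusted p = 0.418). It had 193.1, 193.3 and 283 in EAMG DIA, against 325, 229 and 249.9 in control DIA, a change of -0.27 ± 0.22 (adjusted p = 0.528). In EAMG EDL it had 256.5, 279 and 310.3, against 217.5, 214 and 404 in control EDL, a change of 0.08 ± 0.22 (adjusted p = 0.865). The groups overlapped in DIA and EDL. Kcnn3 reached the signal minimum of 400 only on the EAMG EOM arrays and on the control EDL array that read 404.

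Beside Kcnn3 in EOM, the summed signal of 11 markers of orbital gland and epithelium ranged between 6058 and 10785 in EAMG EOM and between 2512 and 4221 in control EOM, and 1 of the 8 tested passed, higher in EAMG. Its part in the value of Kcnn3 was not tested. Of the 7 tested genes of the denervation response, which are transcribed along the fibre when nerve input fails, 1 passed in DIA, 3 in EDL and 3 in EOM, all higher in EAMG. The shares of all probe sets that passed were 2.68%, 6.59% and 1.50%. Chrna1, the alpha subunit of the acetylcholine receptor, rose by 1.22 ± 0.20 on the log2 scale in EOM (adjusted p = 0.00533). Its changes in DIA and EDL are not given here, so the EOM value does not set the muscles apart.

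The test of whether the EAMG change differed between muscles called none of the 8 channel probe sets. It called 0.106% of all probe sets for EOM against EDL, 0.0163% for EOM against DIA and 0.0163% for DIA against EDL. At an unadjusted p under 0.05 there were 0, 2 and 2 channel probe sets in these comparisons. For Kcnn3 the change in EOM minus that in DIA was 0.72 ± 0.32 on the log2 scale (adjusted p = 0.735). Leaving out EAMG EDL replicate 2, the array of high slow fibre signal, gave EDL changes between -0.14 and 0.74 over the 8 probe sets, with no call.

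The genes whose log2 signal followed each channel gene most closely over the 18 arrays were named by Pearson's r, which is a description of arrays that share their muscle, treatment and RNA. For Cacna1s they were Rbm15 (r = 0.97), Ddx1 (0.97) and Eif5b (0.97), and for Kcnj11 they were Cebpg (0.98), Sumo3 (0.95) and Mia3 (0.94). For Clcn1 they were Pygm (0.93) and Pfkm (0.88), the muscle forms of glycogen phosphorylase and phosphofructokinase, and Syngr2 (0.87). For Cacnb1 they were Gsk3b (0.87), Lsm4 (0.86) and Ppp1r3a (0.86), and for Kcnn3 Scgb1c1 (0.87), Ing4 (0.86) and Tmed4 (0.86). Once the mean of each group was removed, Pygm and Pfkm had values of 0.93 and 0.92. Syngr2 then had a value of 0.88. The remaining genes had lower values than before, between 0.48 (Scgb1c1) and 0.87 (Cebpg). The lowest and highest Clcn1 signals came from EAMG DIA replicate 3 (high GAPDH ratio) and EAMG EOM replicate 2 (low poly-A signal). Their part in the values for Clcn1 was not tested.

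The partners of these channels were described from lists. In the list of voltage-gated calcium channels, 10 of 20 genes were tested. For EAMG 1 passed in a single muscle, DIA, where 2.68% of all probe sets passed. Cacna2d1, the alpha-2/delta subunit of the dihydropyridine receptor, had signals of 4157, 2850.4 and 3186 in EAMG DIA, against 4816, 4427 and 4699 in control DIA. The groups did not overlap, and it fell by 0.47 on the log2 scale (SE 0.12, adjusted p = 0.0439). That call was lost in 18 of 28 alternatives, 14 of which left out 1 array (adjusted p 0.0503 to 0.220; every array except EAMG DIA replicate 1 and the 3 EAMG EDL arrays). For the average of the muscles 3 of the 10 passed, all lower in EAMG, where 20.4% of all probe sets passed. They were Cacna2d1 (-0.20 ± 0.07, a call lost without any single array but EAMG DIA replicate 1), Cacna2d3 (-0.39 ± 0.11) and Rrad. Cacna2d3, whose signal never exceeded 406, lost its call in 2 of 26 alternatives (adjusted p 0.071 to 0.088). Rrad, a small GTPase that inhibits calcium channels, fell by 1.17 (SE 0.36, adjusted p = 0.0338) and lost its call in 12 of 27 alternatives (adjusted p 0.0506 to 0.104). Those included leaving out control DIA replicate 2 or 3, EAMG DIA replicate 2 or 3, replicate 1 of either EDL group, control EOM replicate 2 or 3, or EAMG EOM replicate 3. Rrad read 279, 326 and 295 in EAMG DIA, against 648, 827 and 835 in control DIA.

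Between control EOM and control EDL 41.4% of all probe sets passed, and the calcium channel list held 1 gene higher and 4 lower in EOM. Cacng1, the gamma subunit of the dihydropyridine receptor, had signals of 2592, 3050 and 2764 in control EOM, 4649, 4114 and 5055 in control DIA, and 6791, 6714 and 9509 in control EDL. The muscles did not overlap and stood in the same order as for Cacna1s, with differences of -1.44 ± 0.15 for EOM minus EDL (adjusted p = 3.78e-06) and -0.72 ± 0.15 for EOM minus DIA (adjusted p = 0.00321). Of 6 tested genes of the T-tubule and triad, 4 were lower in EOM than in EDL and none higher, among them Jph2 (-1.69 ± 0.20), a junctophilin that holds the triad together, and Bin1 (-0.996 ± 0.157), which shapes the T-tubule. None of the 6 passed for EAMG in any muscle.

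Of the 13 sodium channel genes listed 5 were tested, and none passed for EAMG. Scn7a, a sodium channel paralogue that responds to sodium level, was higher in EOM than in EDL by 2.36 ± 0.19 on the log2 scale (adjusted p = 3.94e-07), and Scn1a, a channel best known from neurons, was higher in DIA than in EDL by 2.78 ± 0.24 (adjusted p = 3.15e-06). Scn1a read 876, 968 and 1088.5 in control DIA and 129, 126 and 175 in control EDL.

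Of the 12 genes of chloride channels and chloride transport 7 were tested, and none passed in a single muscle for EAMG. For the average of the muscles 1 passed in each direction, where 20.4% of all probe sets passed. Clcn4, an intracellular chloride and proton exchanger, fell by 0.37 on the log2 scale (SE 0.10, adjusted p = 0.0158), and Slc12a2, which carries sodium, potassium and chloride into the cell, rose by 0.28 (SE 0.08, adjusted p = 0.0272). The call of Clcn4 was lost with no signal minimum (adjusted p = 0.0696), and that of Slc12a2 was lost in 9 of 27 alternatives (adjusted p 0.0506 to 0.105), among them without control DIA replicate 3, EAMG DIA replicate 2 or 3, EAMG EDL replicate 3, control EOM replicate 2 or 3, or EAMG EOM replicate 2. Ano5, an anoctamin of muscle whose loss causes muscular dystrophy in humans, had a log2 difference of -1.29 ± 0.10 for EOM minus EDL (adjusted p = 3.54e-07). Mbnl1, which directs the splicing of Clcn1 transcripts and is sequestered in myotonic dystrophy, had a difference of -1.31 ± 0.12 for EOM minus EDL (adjusted p = 7.14e-07). None of the 4 tested regulators of Clcn1 splicing passed for EAMG.

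Of the 42 potassium channel genes and subunits listed, 37 had a probe set and 9 were tested. For EAMG 1 passed in each direction in EDL and 1, higher, in EOM, where 6.59% and 1.50% of all probe sets passed. Kcnq5, a slowly activating voltage-gated channel, rose in EDL and EOM. It had signals of 2213, 2407 and 3092 in EAMG EDL, against 1305, 1574 and 1725 in control EDL, and 3874, 2808 and 3536 in EAMG EOM, against 1921, 1969 and 2212 in control EOM. The groups did not overlap, and the change was 0.74 ± 0.17 in EDL (adjusted p = 0.0223), 0.73 ± 0.17 in EOM (adjusted p = 0.0462) and 0.64 ± 0.17 in DIA (adjusted p = 0.0566). The EDL call was lost without control EDL replicate 1 or 2 or EAMG EDL replicate 2 or 3 (adjusted p 0.0579 to 0.102), and the EOM call without any of 11 single arrays (adjusted p 0.0504 to 0.172), including each EOM array but EAMG replicate 2. Both were also lost with no signal minimum (adjusted p = 0.106 in EDL and 0.206 in EOM) and with only the arrays of the contrast (0.136 and 0.0633). Another probe set of Kcnq5, 1391314_at, gave -0.70 ± 0.55 in EDL and -0.50 ± 0.55 in EOM, neither of which passed, so the probe sets of this gene do not share a direction.

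Kcnab1, a cytoplasmic beta subunit of voltage-gated potassium channels, had signals of 364, 178 and 169 in EAMG EDL, against 439, 446 and 521 in control EDL. The groups did not overlap, and it fell by 1.07 on the log2 scale (SE 0.27, adjusted p = 0.0284). The call was lost without any EDL array but EAMG replicate 1 (adjusted p 0.0595 to 0.125), with no signal minimum (0.118) and with only the arrays of the contrast (0.168). Kcnma1, the large-conductance channel opened by calcium and voltage, was higher in EOM than in EDL by 2.60 ± 0.17 (adjusted p = 3.92e-08) and higher than in DIA by 3.06 ± 0.17 (adjusted p = 8.39e-09), and did not pass for EAMG. Abcc9, the sulfonylurea receptor subunit that accompanies the Kcnj11 pore in several tissues, had an EAMG change of -0.07 ± 0.12 for DIA, -0.16 ± 0.12 for EDL and -0.20 ± 0.12 for EOM by its brightest probe set.

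For the average of the muscles 5 of the 9 potassium channel genes passed, 3 higher and 2 lower in EAMG, where 20.4% of all probe sets passed. Kcnq5 (0.71 ± 0.10, adjusted p = 0.000343) and Kcnj12, an inward rectifier (0.44 ± 0.13, adjusted p = 0.0228), were higher. Kcnab1 (-0.57 ± 0.15, adjusted p = 0.0175) and Kcnj8, the pore of the ATP-sensitive channel of blood vessels (-0.51 ± 0.10, adjusted p = 0.00353), were lower. With no signal minimum the calls of Kcnj12 (adjusted p = 0.0862) and Kcnab1 (0.0691) were lost, and without the low poly-A arrays that of Kcnj12 (0.0702).

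**Figure D4:**
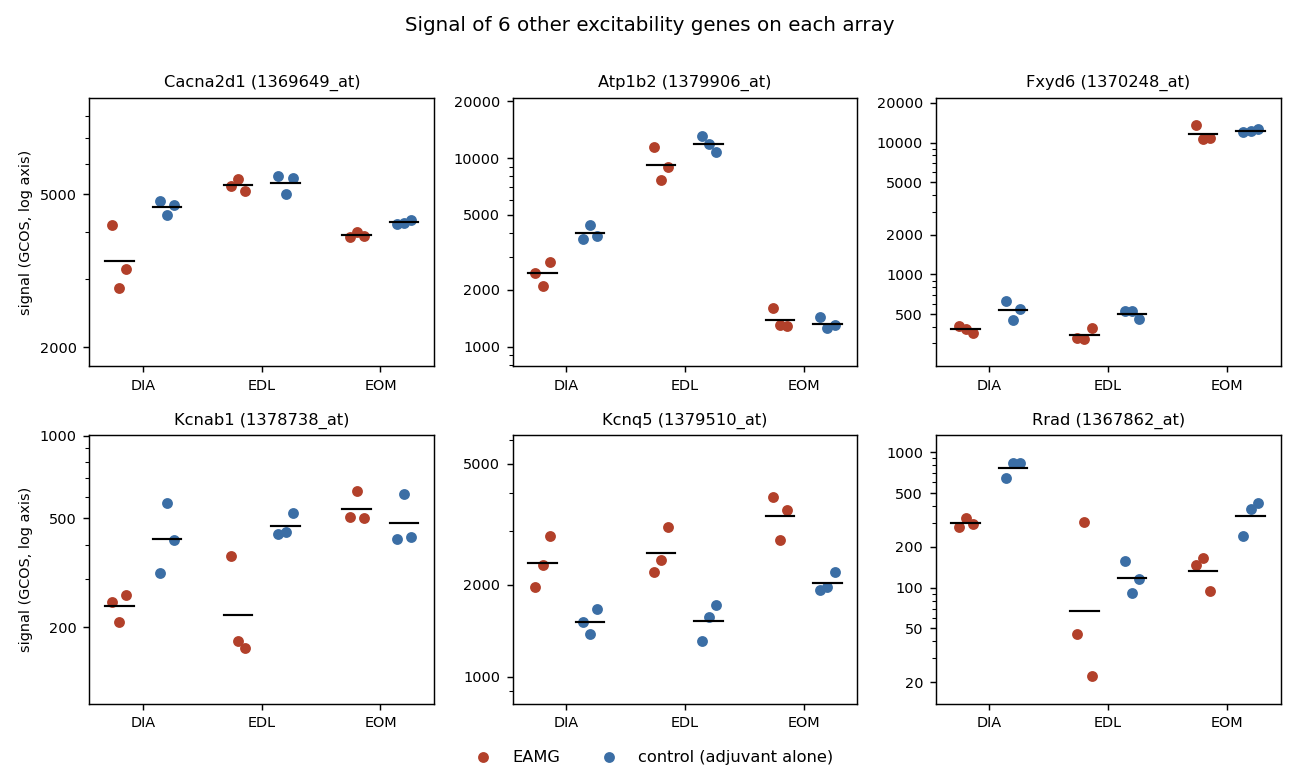
Each point is the signal of 1 array on a log axis for 6 other excitability genes, with EAMG arrays (red) left of control arrays (blue) and a bar at the geometric mean of 3. Kcnq5 lies higher in EAMG in each muscle, Atp1b2 lies lower in EAMG DIA, and Fxyd6 is far higher in EOM than in the other muscles.

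The sodium pump list had 10 of 15 genes tested, and 1 passed in DIA and 1 in EDL for EAMG, both lower. Of all probe sets 2.68% passed in DIA and 6.59% in EDL. Atp1b2, a beta subunit, is given by its brighter probe set. It had signals of 2469, 2098 and 2826 in EAMG DIA, against 3736.5, 4419 and 3861 in control DIA. The groups did not overlap, and it fell by 0.71 on the log2 scale (SE 0.15, adjusted p = 0.0258), a call lost without any control DIA array or EAMG DIA replicate 2 (adjusted p 0.0716 to 0.145), with no signal minimum (0.135), with only the arrays of the contrast (0.124) and without the low poly-A arrays (0.155). In EOM it read 1429, 1258 and 1299 in control arrays, against 13056, 11891 and 10783 in control EDL, a difference of -3.16 ± 0.15 (adjusted p = 2.01e-09).

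Fxyd6, a small regulator of the pump, ran the other way between muscles, with 12103.5, 12163 and 12601 in control EOM and 527, 532.5 and 457 in control EDL, a difference of 4.61 ± 0.13 (adjusted p = 7.11e-12). In EDL it had 329.8, 322 and 389.6 in EAMG arrays and fell by 0.54 (SE 0.13, adjusted p = 0.0276), a call lost without control EDL replicate 1 or 2 or EAMG EDL replicate 2 (adjusted p 0.0931 to 0.104), with no signal minimum (0.129) and with only the arrays of the contrast (0.145). Of the 10 tested pump genes, 6 were higher and 2 lower in control EOM than in control EDL, where 41.4% of all probe sets passed. None of the 4 tested genes of surface calcium pumps and ion exchangers passed for EAMG.

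For the average of the muscles 4 of the 10 pump genes passed, 3 of them lower in EAMG, where 20.4% of all probe sets passed. Fxyd6 (-0.37 ± 0.08, adjusted p = 0.00450), Atp1b2 (-0.33 ± 0.09, adjusted p = 0.0173) and Atp1b4, a relative of the beta subunits (-0.66 ± 0.22, adjusted p = 0.0438), were lower, and Fxyd7, another small regulator (0.39 ± 0.12, adjusted p = 0.0330), was higher. The call was lost in 0, 2, 16 and 9 of 27 alternatives in that order. For Atp1b4 the losses included leaving out any single array except EAMG DIA replicate 3, EAMG EDL replicate 1 and the EAMG EOM arrays. For Fxyd7 they included leaving out control DIA replicate 3, EAMG DIA replicate 1, control EDL replicate 2 or 3, control EOM replicate 3 or EAMG EOM replicate 1.

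Marker lists moved with EAMG too, where 2.68% of all probe sets passed in DIA and 6.59% in EDL. Beside the calls in DIA and EDL, 2 of 6 tested fibroblast markers were lower in EAMG DIA and 4 of 6 in EAMG EDL. The summed signal of all 7 with a probe set ranged between 24449 and 33321 in EAMG DIA and 40282 and 46684 in control DIA, and between 15078 and 21543 in EAMG EDL and 21242 and 34809 in control EDL. In DIA the summed fast fibre signal ranged between 178167 and 191155 in EAMG and 222462 and 233836 in control arrays, with 1 of 9 markers called, lower, and the summed macrophage signal between 10406 and 14324 in EAMG and 6759 and 9882 in control arrays, with 0 of 7 called. The part of these shifts in the values of the pump and channel genes was not tested.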

How the data were processed

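The deposited values were signal intensities on a linear scale, 1 per probe set and array, which the authors made with GCOS 2.0 from perfect match and mismatch probes and scaled to one target intensity per array. Gene symbols came from the platform annotation (436 probe sets carried several symbols and 9780 none, and these were not named). A probe set whose signal reached 400 on any of the 18 arrays was tested, as log2 signal, with limma 3.58.1 under R 4.3.3 (1 mean for each of the 6 groups, 12 residual degrees of freedom, lmFit and eBayes), and p-values received a Benjamini-Hochberg adjustment over 12238 probe sets. The test was tried on simulated data first.

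Every probe set of the 6 genes is given, and the one with the highest mean log2 signal speaks for the gene. In the other lists the brightest tested probe set also speaks for its gene, and further probe sets are given only where named. Of these lists, up to 4 genes with the largest difference among those called, and the 3 genes most like each channel gene, were to be named. Kcnq5 1391314_at and Abcc9 were picked after their values were seen. Chrna1 was also named outside this rule. The genes and lists were chosen with earlier results of these data known. Errors after ± are standard errors of limma. Plots used matplotlib 3.10.9 under python 3.11.15. The change calls of GCOS were not used here. The number of arrays limits the precision.

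Array numbers come from the labels, which do not say what they mark; per the methods, the experiment was repeated to give the replicates. In EDL the deviations from the group mean of same-numbered EAMG and control arrays correlated at r 0.15 to 0.34. That was above the limit of 0.1 in 3 of 3 pairs, so EDL numbers were read as pairs. The EDL values printed nevertheless come from the fit without a block, unless a refit is named. With the replicate block no call of a named gene for EAMG in EDL changed. Cacnb1 1378073_at gained its call for control DIA minus EDL (adjusted p = 0.0276).

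Alternatives were no signal minimum or a minimum on 3 arrays, quantile normalization, 100 added to each signal, only the arrays of a contrast, a replicate block, the pool as a random block, array weights, a trended robust prior, and leaving out arrays.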

Additional observations from a re-analysis of the deposited data

Results flagged for a closer look

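The EAMG arrays of Scn1a lay below the controls in DIA and above them in EOM, and the change in EOM minus that in DIA was 1.07 ± 0.34 (SE) on the log2 scale. Its signals were 820, 614 and 812 in EAMG DIA against 876, 968 and 1088.5 in control DIA, and 328, 469 and 352 in EAMG EOM against 179, 248 and 296 in control EOM. The test of the difference did not pass over all probe sets (limma, adjusted p = 0.530).

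Jph2 had the same pattern, with a difference of 1.06 ± 0.29 that did not pass either (adjusted p = 0.460). Its signals were 2591, 1747.5 and 2785 in EAMG DIA against 3686, 4413 and 3589 in control DIA, and 2667, 2584 and 2604 in EAMG EOM against 2301, 1903 and 2099.7 in control EOM. Groups of 3 arrays are too small to mark single arrays as outlying, and no channel gene described first was marked.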

How the results depend on the processing

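The 80 results of the channel probe sets were refitted 2232 times. None reversed a called direction, 2201 kept their side of the threshold, 8 lost the call and 23 gained it. The losses were 7 for Cacnb1 1378073_at (EOM minus EDL) and 1 for Cacna1s (DIA minus EDL). Of the gains, 13 were Cacnb1 1378073_at for DIA minus EDL. The 93 results of other named genes lost their call in 231 of 2586 refits and reversed in none.

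The number of probe sets called depended on the alternative. With no signal minimum it was 36 in DIA, 158 in EDL, 39 in EOM, 1267 for the average change and 1952 for control DIA minus EDL, against 328, 806, 183, 2495 and 3040. With only the arrays of the contrast it was 14 in DIA and 3 in EDL. Array weights gave 466 in EOM and 4086 for control EOM minus DIA, against 2608. Without the 2 low poly-A arrays it was 50 in DIA and 1639 for the average. For the differences of the EAMG change, EOM minus EDL had 13 calls, and 4 with no signal minimum, 45 with 100 added, 5 with only the arrays of the contrast, 38 with the pool as a random block, 61 with array weights, 35 with a trended robust prior and 21 without the low poly-A arrays. EOM minus DIA had 2, and 1 with no signal minimum, 14 with 100 added and 7 without the low poly-A arrays. DIA minus EDL had 2, and 0 with no signal minimum, with only the arrays of the contrast and without the low poly-A arrays, and 1 with array weights. Leaving out 1 array at a time gave 62 to 808 calls in DIA, 177 to 1278 in EDL, 50 to 213 in EOM, 1890 to 2758 for the average, 4065 to 5134 for control EOM minus EDL, 1899 to 2722 for EOM minus DIA, 2087 to 3124 for DIA minus EDL, and 8 to 77, 2 to 8 and 0 to 3 for the differences of the change in the order above. The cause of these shifts was not tested.

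Same-numbered EAMG and control arrays of DIA and of EOM met the limit of r above 0.1 in 2 of 3 pairs each (lowest r -0.03 and -0.01). Whether the numbers pair these arrays is therefore not settled, although 7 of 9 EAMG arrays correlated best with the control array of their number. Between muscles of the same treatment, 9 of 18 same-numbered pairs met the limit (r -0.20 to 0.47). The highest r was that of EAMG DIA and EAMG EOM replicate 2, both of low poly-A signal. Whether same-numbered arrays of different muscles share rats is not settled either. With the replicate block the calls were 457 in DIA, 1050 in EDL and 228 in EOM, and 22 for EOM minus EDL and 0 for DIA minus EDL among the differences of the change. Of the named genes the block changed 2 calls, both gained: Cacnb1 1378073_at for control DIA minus EDL (adjusted p = 0.0276) and Kcnq5 for EAMG in DIA (0.0223).

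Signals near background limit Scn4a, Clcn1 and Kcnn3. GCOS present calls were not used here, so the number of arrays on which each was detected is not known.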
